A study of Homo sapiens with 18 samples.

Results

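The 10 inflammatory mediators described here were measured as transcripts in xenograft tumors, namely the cytokines IL6, LIF, IL11, IL1A and IL1B and the chemokines CCL2, CCL5, CXCL1, CXCL2 and CXCL8. They were picked by gene symbol, with earlier results of these tumors known, and are 10 of the 20555 genes in the table. The tumors were grown from MSTO-211H, an established human mesothelioma cell line, stably carrying a piggyBac construct in which doxycycline switches on a short hairpin RNA against YAP1. YAP1 is the coactivator that drives TEAD transcription factors when Hippo signaling is lost. Cells were injected under the skin with Matrigel in SCID mice, which lack mature lymphocytes but keep macrophages, neutrophils and stroma of their own. All mice drank 5% glucose until tumors reached about 300 mm3. The 0 h group of 5 tumors was sampled then. Groups of 4, 5 and 4 tumors were sampled after 24, 96 and 216 h, with doxycycline added to the water at 0.5 mg/ml. Every tumor therefore carried the hairpin construct, and no tumor with a control hairpin was compared here. Each tumor came from its own mouse and each group was 1 cage group, so that time and cage cannot be told apart. The labels give the 216 h tumors continued doxycycline, while the text of the study also describes tumors sampled after doxycycline had been withdrawn. Which of these schedules the 216 h tumors had was not settled.

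These mediators are the core of the secreted inflammatory program of epithelial and mesothelial tumors. IL-6, LIF and IL-11 signal through the shared receptor chain gp130 (IL6ST) to STAT3. IL-1 alpha and IL-1 beta act through IL1R1 and MyD88 on NF-kB, which in turn drives transcription of IL6, CCL2, CXCL1, CXCL2 and CXCL8. CCL2 draws monocytes, CCL5 draws T cells, monocytes and eosinophils, and CXCL1, CXCL2 and CXCL8 draw neutrophils through CXCR1 and CXCR2. IL6 and CXCL1 are on the list of genes that the study takes as going up with YAP1-TEAD activity.

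Promoter sequence was read for 7 of the 10 genes from RefSeq (GRCh38.p14), as windows of 250 bases before and 50 bases after each annotated start. CCL2, CCL5 and LIF were not among those matched. Windows were searched on both strands for NF-kB-like letters (GGGANTTTC and GGAATTTCC), for an AP-1 site (TGANTCA) and for a TEAD site (GGAATG). An NF-kB-like match was found for IL6, CXCL1, CXCL2 and CXCL8, that is 4 of 7, while 1.59% of all 35116 windows hold one. Neither form was found in all 4 genes: IL6 had only the first and CXCL8 only the second. The stretches around these matches are shown, each holding the first form, the second or both. Each is 30 bases long, read 5′ to 3′ on the strand of the gene, with the matching bases in capitals:
IL6 at chr7:22727117-22727146, plus strand: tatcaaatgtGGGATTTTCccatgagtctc
CXCL1 at chr4:73869304-73869333, plus strand: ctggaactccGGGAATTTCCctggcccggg
CXCL2 at chr4:74099254-74099283, minus strand: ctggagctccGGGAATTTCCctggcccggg
CXCL8 at chr4:73740468-73740497, plus strand: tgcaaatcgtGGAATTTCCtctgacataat

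Both NF-kB-like forms overlap in the CXCL1 and CXCL2 stretches, which differ from each other at 1 of 30 positions. Those of IL6 and CXCL8 differ at 16. In GENCODE release 29 the CXCL1 and CXCL8 stretches lie outside the range of their gene, and that of IL6 lies inside it but in no exon. That of CXCL2 overlaps 1 annotated exon. The AP-1 letters were present for CXCL8, IL1A and IL11, 3 of 7 genes against 7.71% of all windows. The TEAD letters were present for 0 of 7 genes and in 14.0% of all windows. A match is a description of letters, and no binding was measured here.

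The level of each gene was taken as FPKM, the fragments per kilobase of gene scaled to the mapped fragments of the library, in which the length of the gene is divided out. The libraries were made by exome capture, whose yield can differ between genes, so that an order of genes by FPKM is an order of these values. Read counts were not analysed here, so the depth is unknown and no counting interval is given. Of the 10 genes, 8 reached at least 1 FPKM in at least 4 tumors and entered the fit of 11379 genes by limma on log2(FPKM + 1). IL1A and IL11 did not. Differences below are between group means on this log2 scale with the standard error of the fit, and the scale understates changes of genes at low levels. Because these contrasts served to choose the genes, their differences are given as a description without p-values. The targeted gene YAP1 had means of 7.26, 5.81, 4.77 and 7.18 FPKM at 0, 24, 96 and 216 h, and in limma's test no contrast of it passed an adjusted p of 0.05. The means at 24 and 96 h differed from that at 0 h by -20.0% and -34.3%. By RT-qPCR the study reports larger falls of YAP1 mRNA at these times. It also reports YAP1 mRNA still reduced in tumors sampled days after doxycycline was withdrawn. The 216 h mean here differed from that at 0 h by -1.2%, and whether these are the same tumors was not settled. The YAP1 target CYR61 fell at 96 h (log2 difference -0.42, adjusted p = 0.0353) and at 216 h (-0.86, adjusted p = 2.47e-05). CTGF, another target, fell at 216 h (-0.94, adjusted p = 0.00253).

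Libraries stood apart in another way, in the number of genes listed at 0. It was at least 5593 in 10 tumors and at most 5179 in the other 8. All 0 h tumors belonged to the former and all 96 h tumors to the latter, while 24 h replicates 1 and 2 fell with the former and replicates 3 and 4 with the latter. Of the 216 h tumors, replicate 1 was among those with fewer genes at 0. The 13 mitochondrially encoded genes took between 74.9% and 76.0% of the FPKM sum at 216 h and between 77.6% and 84.8% in the other groups. At 216 h the median gene was 0.17 (log2) above 0 h, so differences at 216 h stand on that shift. With quantile normalization that median was -0.03, and the share of higher genes among those passing the test went from 84.6% to 51.9%. Against 96 h the median was 0.16 and the share went from 93.3% to 53.7%.

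Summed over the 10 genes, the mean level was 85.5 FPKM ± 13.5 (SD, n = 5) at 0 h and 72.8 FPKM ± 8.19 (SD, n = 4) at 24 h. It was 54.2 FPKM ± 9.81 (SD, n = 5) at 96 h and 57.9 FPKM ± 12.8 (SD, n = 4) at 216 h. IL6 and CCL5 together made up 60.9% of the sum at 0 h, 47.4% at 24 h, 35.5% at 96 h and 31.5% at 216 h. The difference in the sum therefore lay mainly in these 2 genes, while CCL2 and IL1B took a larger part at 216 h. Tumors are bulk tissue, in which fewer cells of a type and less RNA per cell cannot be told apart.

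**Figure D1:**
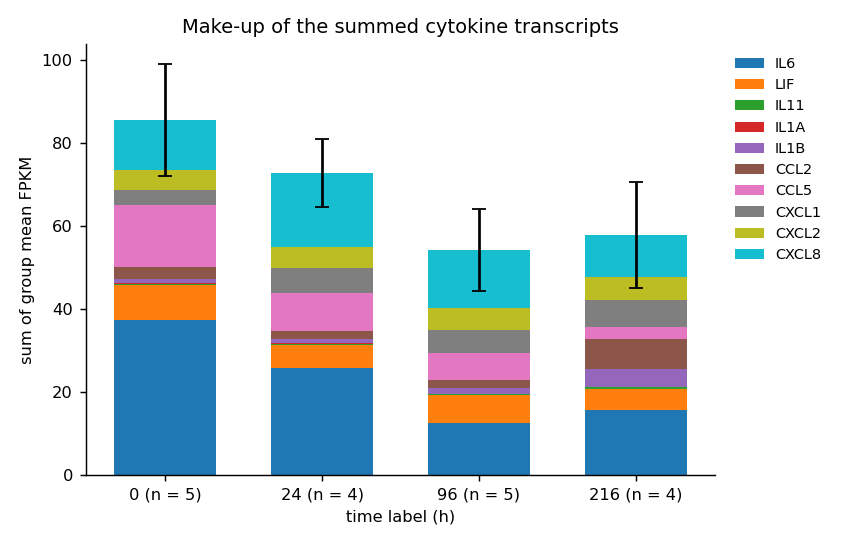
Stacked bars give the mean FPKM of each of the 10 genes by time label (n = 5, 4, 5 and 4 tumors), and the error bars give the SD of the summed level across tumors. The IL6 and CCL5 parts are smaller in every later group than at 0 h, and the CCL2 and IL1B parts are widest at 216 h.

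IL6 had the highest mean of the gp130 cytokines in every group. It also had the highest mean of all 10 genes, except at 96 h, where that of CXCL8 was higher. IL6 (ENSG00000136244.11, chr7:22725884-22732002, plus strand, GRCh38) was at 52.3, 25.8, 41.8, 30.1 and 36.4 FPKM in the 0 h tumors. It was at 36.2, 27.9, 21.3 and 17.4 FPKM at 24 h, and at 14.2, 12.9, 10.7, 12.8 and 12.0 FPKM at 96 h. At 216 h the tumors had 18.8, 8.18, 16.5 and 19.1 FPKM. All 96 h and all 216 h tumors lay below every 0 h tumor, whereas 2 of 4 tumors did so at 24 h. The tumors at 96 h lay within a narrow band (SD 1.28 FPKM against 10.4 FPKM at 0 h). Against 0 h the log2 difference was -0.53 ± 0.24 (SE) at 24 h, -1.47 ± 0.23 at 96 h and -1.23 ± 0.24 at 216 h. Between 96 h and 216 h the groups overlapped (0.24 ± 0.24), with 3 of 4 tumors at 216 h above every 96 h tumor and replicate 2 below all of them.

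LIF, which maintains stem cells in culture and is induced in many carcinomas, showed smaller differences. LIF (ENSG00000128342.4, chr22:30240447-30246851, minus strand) was at 8.02, 9.60, 9.96, 9.01 and 5.89 FPKM at 0 h and at 7.52, 4.37, 6.12 and 4.72 FPKM at 24 h. It was at 7.80, 6.61, 6.79, 6.12 and 6.23 FPKM at 96 h and at 4.45, 4.76, 5.91 and 4.99 FPKM at 216 h. Replicate 5 was the low tumor of the 0 h group, and with it the 0 h range overlapped that of every later group, although all later group means were lower. The log2 difference from 0 h was -0.51 ± 0.15 (SE) at 24 h, -0.29 ± 0.14 at 96 h and -0.64 ± 0.15 at 216 h. Every 216 h tumor was below every 96 h tumor (-0.36 ± 0.15).

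IL11 (ENSG00000095752.6, chr19:55364389-55370463, minus strand), a gp130 cytokine of stroma and fibrosis, stayed below 1 FPKM in all 18 tumors. It ranged from 0.126 to 0.748 FPKM at 0 h, from 0.167 to 0.361 FPKM at 24 h and from 0.122 to 0.290 FPKM at 96 h. At 216 h it ranged from 0.324 to 0.880 FPKM, above every 96 h tumor and overlapping 0 h.

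The IL-1 pair was low at first, and the 2 genes differed at 216 h. IL1B (ENSG00000125538.11, chr2:112829751-112836903, minus strand), the secreted form made above all by myeloid cells, was at 1.45, 0.474, 0.584, 1.30 and 0.602 FPKM at 0 h and at 0.464, 1.61, 0.595 and 1.02 FPKM at 24 h. It was at 0.751, 1.14, 1.28, 0.930 and 1.96 FPKM at 96 h. The 216 h tumors had 3.54, 3.37, 5.43 and 4.52 FPKM, all above every tumor of the other groups. The 216 h mean was 4.79 times the 0 h mean. The log2 difference from 0 h was 0.03 ± 0.20 (SE) at 24 h, 0.24 ± 0.19 at 96 h and 1.49 ± 0.20 at 216 h, and from 96 h to 216 h it was 1.24 ± 0.20.

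IL1A (ENSG00000115008.5, chr2:112773915-112784590, minus strand), an alarmin released by damaged epithelium, was listed at 0 in 7 of 18 tumors. Its highest value was 0.518 FPKM, in 0 h replicate 3, and its highest value at 216 h was 0.212 FPKM. The large 216 h values of IL1B had no counterpart in IL1A.

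The CC chemokines differed from 0 h in opposite directions at 216 h. CCL5 (ENSG00000271503.5, chr17:35871491-35880793, minus strand) was at 17.5, 17.9, 12.6, 16.0 and 10.7 FPKM at 0 h and at 9.04, 12.9, 7.21 and 7.51 FPKM at 24 h. It was at 6.78, 7.77, 4.62, 7.37 and 5.59 FPKM at 96 h and at 2.46, 2.36, 3.93 and 2.73 FPKM at 216 h. The group means were in the order of the time labels, and the 96 h and 216 h groups overlapped neither the 0 h group nor each other. The 216 h mean was 80.8% below that of 0 h. Its log2 difference from 0 h was -0.66 ± 0.19 (SE) at 24 h, -1.10 ± 0.18 at 96 h and -2.03 ± 0.19 at 216 h, and from 96 h to 216 h it was -0.94 ± 0.19.

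CCL2 (ENSG00000108691.9, chr17:34255218-34257203, plus strand) was at 3.01, 1.59, 4.03, 2.79 and 3.53 FPKM at 0 h and at 1.69, 2.46, 2.80 and 1.02 FPKM at 24 h. It was at 2.02, 2.30, 2.01, 1.78 and 2.32 FPKM at 96 h and at 4.64, 6.52, 8.61 and 9.43 FPKM at 216 h. Replicate 1 was the lowest of the 216 h tumors and was still above every tumor of the other groups. At 24 h and 96 h all tumors were below the 0 h mean, but only 24 h replicate 4 was below every 0 h tumor. The log2 difference from 0 h was -0.42 ± 0.21 (SE) at 24 h, -0.34 ± 0.20 at 96 h and 1.05 ± 0.21 at 216 h, and from 96 h to 216 h it was 1.39 ± 0.21. In FPKM, CCL5 was above CCL2 at 0 h and CCL2 above CCL5 at 216 h, in both cases without overlap of their ranges.

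Of the neutrophil-attracting CXC chemokines, CXCL1 had higher means in the 24 h, 96 h and 216 h groups than at 0 h, and CXCL2 and CXCL8 had overlapping ranges throughout. CXCL1 (ENSG00000163739.4, chr4:73869393-73871242, plus strand) was at 5.28, 2.10, 4.02, 3.09 and 2.90 FPKM at 0 h and at 6.10, 5.03, 5.72 and 7.05 FPKM at 24 h. It was at 5.17, 7.15, 6.97, 3.91 and 4.95 FPKM at 96 h and at 6.95, 4.83, 5.65 and 8.22 FPKM at 216 h. All 24 h, 96 h and 216 h tumors were above the 0 h mean, but 0 h replicate 1, the highest of its group, overlapped each later group. The log2 difference from 0 h was 0.67 ± 0.20 (SE) at 24 h, 0.58 ± 0.19 at 96 h and 0.75 ± 0.20 at 216 h.

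CXCL2 (ENSG00000081041.8, chr4:74097035-74099293, minus strand) was at 2.61, 4.42, 4.87, 6.29 and 6.02 FPKM at 0 h and at 5.42, 4.68, 4.90 and 7.59 FPKM at 216 h. Its values lay between 3.03 and 7.29 FPKM at 24 h and between 3.90 and 7.52 FPKM at 96 h. The ranges of the 4 groups overlapped, and the log2 difference from 0 h was 0.08 ± 0.24 (SE) at 24 h, 0.09 ± 0.22 at 96 h and 0.21 ± 0.24 at 216 h. CXCL3, a near-identical paralog, was at 1.29 FPKM ± 0.207 (SD, n = 5) at 0 h and 2.13 FPKM ± 0.520 (SD, n = 4) at 216 h. Of the 31-base stretches of their transcripts in GENCODE release 29, 14.4% of CXCL1 and 22.4% of CXCL2 also occur in another gene, mainly in each other and in CXCL3, so that part of the reads could have been split between them.

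CXCL8 (ENSG00000169429.10, chr4:73740506-73743716, plus strand) was at 11.5, 6.41, 17.6, 11.3 and 13.4 FPKM at 0 h and at 16.2, 17.6, 13.6 and 24.0 FPKM at 24 h. It was at 17.8, 21.3, 14.0, 9.44 and 7.39 FPKM at 96 h and at 13.7, 4.38, 11.0 and 11.6 FPKM at 216 h. All 24 h tumors were above the 0 h mean and 2 of 4 were above every 0 h tumor. Relative to 0 h the log2 difference was 0.56 ± 0.32 (SE) at 24 h, 0.17 ± 0.30 at 96 h and -0.26 ± 0.32 at 216 h. The last was 0.06 without 216 h replicate 2, the tumor with 4.38 FPKM.

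**Figure D2:**
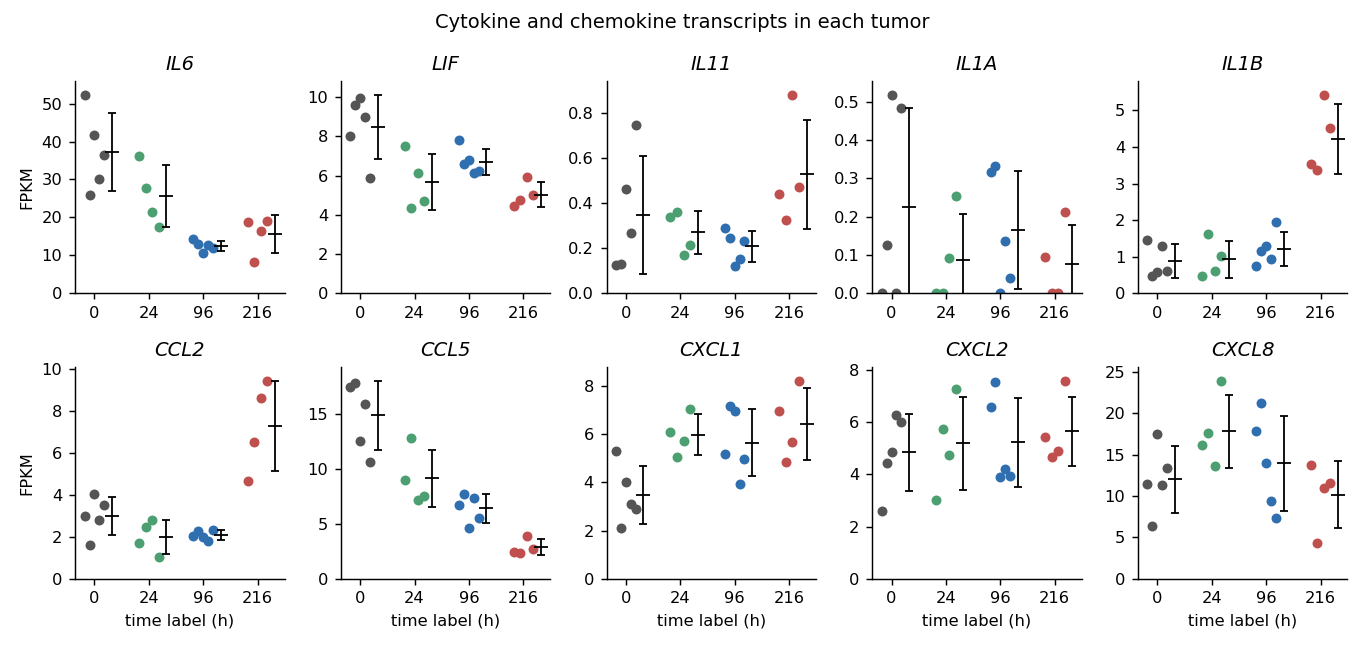
Each panel plots the FPKM of 1 gene (linear axis from 0) against the time label in h, with 1 point per tumor, and the bar beside each group gives its mean and SD, cut at 0 for IL1A. The 96 h and 216 h points of IL6 and CCL5 lie below all 0 h points, and the 216 h points of IL1B and CCL2 lie above all other points.

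Some of the counted reads cannot be assigned with certainty. IL6 overlaps STEAP1B and 1 antisense gene on the other strand, LIF overlaps LIF-AS1 and 1 further antisense gene, and CCL5 overlaps 1 antisense gene. Whether strand was used in counting is not given in the sources used here, so that reads from such pairs could not be told apart. Of the 31-base stretches of CCL5 transcripts, 21.8% also occur in other genes.

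Members passing an adjusted p of 0.05 in limma's test were counted in each contrast. The same contrasts served to choose them, so nothing is read from these counts. At 24 h 0 of 8 passed, against 0.158% of all genes in either direction, 0.00879% as higher and 0.149% as lower, and 4 of 8 had an unadjusted p under 0.05. At 96 h IL6 and CCL5 passed, both lower, that is 2 of 8 against 1.06% of all genes in that direction. At 216 h against 0 h IL6, LIF and CCL5 passed as lower, 3 of 8 against 3.6% of all genes, and IL1B, CCL2 and CXCL1 as higher, 3 of 8 against 19.7%. From 96 h to 216 h IL1B and CCL2 passed as higher, 2 of 8 against 10.3%, and CCL5 as lower, 1 of 8 against 0.747%. CXCL1 no longer passed at 216 h with quantile normalization or with scaling to the median gene (0.53 and 0.56). Groups without overlap were found for 0 of 8 members at 24 h, against 0.466% of all genes as higher and 2.33% as lower. They were found for IL6 and CCL5 at 96 h (lower, 2.59% of all genes), and at 216 h for IL6 and CCL5 (lower, 2.94%) and for IL1B and CCL2 (higher, 16%). Between 96 h and 216 h IL1B and CCL2 (higher, 13.6%) and CCL5 and LIF (lower, 1.34%) did not overlap.

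**Figure D3:**
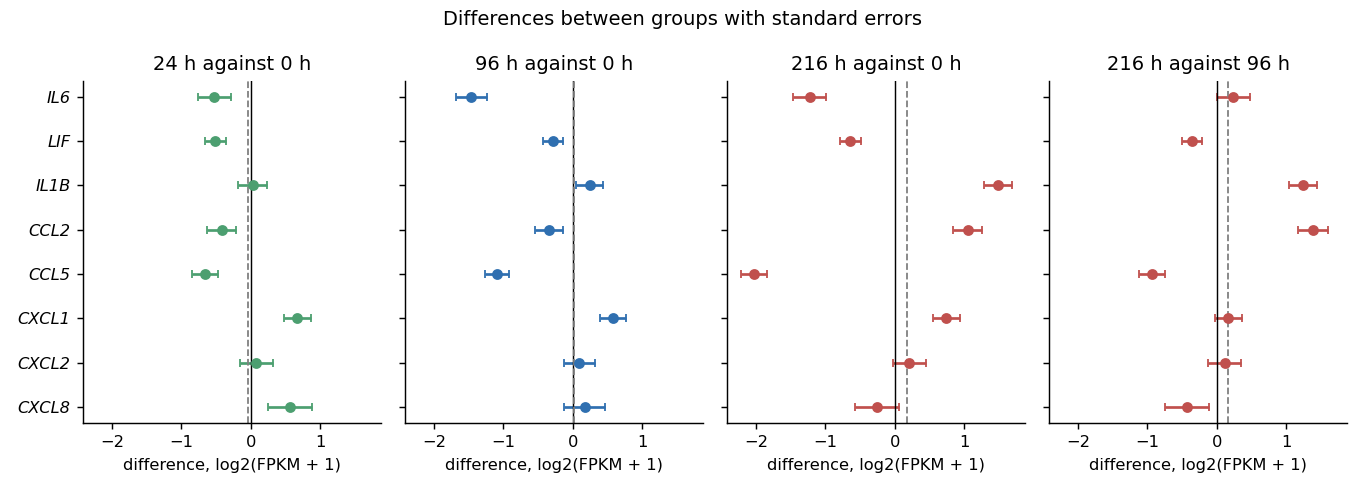
Points give the difference of group means in log2(FPKM + 1) for the 8 genes in the fit, 1 panel per contrast, with bars of 1 SE, a black line at 0 and a dashed line at the median of all 11379 genes tested. CCL5 is the lowest point at 216 h against 0 h (-2.03) and IL1B the highest (1.49), while IL6 is the lowest at 96 h (-1.47).

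The number of genes listed at 0 separated all 0 h from all 96 h tumors, and its part in the 96 h differences was not tested apart from the following values. With a covariate for that split, the log2 difference at 96 h was -1.25 for IL6 and -0.73 for CCL5, and neither passed an adjusted p of 0.05. The covariate could be estimated only from the 24 h and 216 h groups, which hold tumors of both kinds. Over all genes 157 passed at 96 h and 27 with it. Between 96 h and 216 h these were 1260 and 45, so a call lost with it does not settle the part of that split. Among tumors with fewer genes at 0, the 5 tumors at 96 h could be set beside 24 h replicates 3 and 4. IL6 was between 10.7 and 14.2 FPKM in the former and between 17.4 and 21.3 FPKM in the latter, without overlap. CCL5 was between 4.62 and 7.77 FPKM and between 7.21 and 7.51 FPKM, overlapping. Among tumors with more genes at 0, the 3 tumors at 216 h were below all 5 tumors at 0 h for IL6 (at most 19.1 FPKM against at least 25.8 FPKM) and for CCL5 (at most 3.93 FPKM against at least 10.7 FPKM). In the same tumors IL1B was at least 3.37 FPKM at 216 h against at most 1.45 FPKM at 0 h, and CCL2 at least 6.52 FPKM against at most 4.03 FPKM. From 96 h to 216 h only replicate 1 of the latter fell on the side of the 96 h tumors, and it was above all of them for IL1B and CCL2 and below all of them for CCL5. With the covariate, IL1B and CCL2 did not pass an adjusted p of 0.05 between 96 h and 216 h and CCL5 did.

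Ordered by mean FPKM, the 0 h tumors had IL6, CCL5, CXCL8, LIF, CXCL2, CXCL1, CCL2, IL1B, IL11 and IL1A from highest to lowest. In this order only IL6 and CCL5, and CCL2 and IL1B, were neighbours whose ranges did not overlap. At 24 h CXCL8 came before CCL5, without overlap, and at 96 h CXCL8 came before IL6, with overlap. At 216 h IL6 and CXCL8 came first with overlapping ranges, CCL2 had moved from place 7 to place 3, and CCL5 from place 2 to place 8. IL1B was above CCL5 in all 4 of these tumors, although their ranges over tumors overlapped. The neighbours without overlap were CCL5 and IL11, and IL11 and IL1A at 216 h, while at 96 h they were IL6 and LIF, CXCL2 and CCL2, and IL1B and IL11. At 24 h CCL5 and CXCL1, CXCL2 and CCL2, and IL1B and IL11 were apart as well. In all groups IL6 ranked high among all genes, with 95.6% of the 20555 genes below its mean at 0 h and 86.3% at 96 h.

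Some members varied together among tumors of the same group. Each group's mean was first removed from log2(FPKM + 1). Of all pairs of members in the fit, Pearson's r over the 18 tumors was highest for CXCL1 with CXCL8 (0.65). Next came CXCL2 with CXCL8 (0.51), IL6 with CXCL8 (0.49) and IL6 with CXCL1 (0.47). The lowest r was -0.31, for IL1B with LIF. It was 0.27 for IL6 with CCL5, 0.27 for IL1B with CCL2 and 0.03 for CXCL1 with CXCL2. These are descriptions over tumors whose values share a library and its scaling.

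By the same measure over all 18 tumors without removing group means, the genes most like CCL5 were CLDN1, a tight junction protein (r = 0.93), IFI6, an interferon-induced gene (r = 0.92), and PSG4, a pregnancy-specific glycoprotein (r = 0.91). Mean IFI6 was 49.7, 28.3, 22.2 and 15.0 FPKM at 0, 24, 96 and 216 h. The genes most like IL1B were FBLN7, an extracellular matrix protein, ZFP36L2, an RNA-binding protein, and RNF19B, a ubiquitin ligase (r = 0.94 for each). FBLN7 had means of 0.819, 0.611, 1.55 and 7.69 FPKM in the same groups. These r values include the differences between groups, and the points share a library and its scaling.

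The other genes of the pathway were taken from lists of 34 ligands, 24 receptors and antagonists, and 40 genes of NF-kB and STAT3 signaling. These lists were drawn up with earlier results of these tumors known. Their counts, shares and p-values are therefore a description and no independent support. Of the other ligands, 10 of 34 were high enough to test and 5 (TNF, IL33, TSLP, IL24 and CCL8) were listed at 0 in all 18 tumors. In limma's test 0 passed at 24 h and 0 at 96 h, with 0 and 1 at an unadjusted p under 0.05. At 216 h against 0 h 3 rose and 0 fell, 30% of those tested against 23.3% of all genes, and their median difference was 0.40 against 0.17 for all genes. CXCL12, the stromal chemokine of CXCR4, rose from 4.78 FPKM ± 0.816 (SD, n = 5) to 15.3 FPKM ± 6.00 (SD, n = 4), a log2 difference of 1.42 ± 0.33 (SE, adjusted p = 0.00476). CSF1, the growth factor of macrophages, rose from 7.64 FPKM ± 1.60 (SD, n = 5) to 15.6 FPKM ± 3.86 (SD, n = 4), a log2 difference of 0.92 ± 0.19 (SE, adjusted p = 0.00213). CXCL16, a membrane-anchored chemokine, rose by a log2 difference of 0.66 ± 0.17 (SE, adjusted p = 0.00861), which no longer passed with quantile normalization or median scaling. From 96 h to 216 h CSF1 (0.95 ± 0.19, adjusted p = 0.00448) and CXCL16 (0.67 ± 0.17, adjusted p = 0.0162) rose, that is 2 of 10 against 11.1% of all genes, with a median of 0.31 against 0.16. CSF1 did not pass there with the covariate for genes at 0, and CXCL16 passed neither with it nor in any of the 3 rescalings.

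Of the receptors and antagonists, 12 of 24 were tested, and 0 passed at 24 h and 0 at 96 h in limma's test, with 0 and 2 at an unadjusted p under 0.05. At 216 h against 0 h 4 rose and 1 fell, 41.7% against 23.3% of all genes, with a median difference of 0.28 against 0.17. IL11RA, the receptor of IL-11, rose from 3.22 FPKM ± 1.30 (SD, n = 5) to 10.0 FPKM ± 2.07 (SD, n = 4), a log2 difference of 1.42 ± 0.24 (SE, adjusted p = 0.000456). CCR3, the receptor of eosinophils that also binds CCL5, was at most 0.499 FPKM at 0 h and between 0.635 and 1.71 FPKM at 216 h. It is one of the 4, but it reached 1 FPKM in just 4 tumors, 2 of them at 216 h, so that it entered the test through the group where it is high and its call is no support. IL18BP, which binds and blocks IL-18, rose by a log2 difference of 0.66 ± 0.16 (SE, adjusted p = 0.00766), which did not pass with quantile normalization. OSMR, the gp130 partner chain for oncostatin M, fell from 14.3 FPKM ± 1.39 (SD, n = 5) to 9.49 FPKM ± 1.17 (SD, n = 4), a log2 difference of -0.55 ± 0.15 (SE, adjusted p = 0.0114). From 96 h to 216 h 1 of 12 passed against 11.1% of all genes, namely IL11RA (0.88 ± 0.24, adjusted p = 0.0233), with a median of 0.34 against 0.16. That call was lost without 96 h replicate 2 or 4 or without 216 h replicate 3 or 4, without the filter, with the covariate for genes at 0 and in all 3 rescalings, in each of which 1 receptor passed, as lower. Beyond these, and chosen after their values were seen, IL6ST was at 62.6 FPKM ± 18.4 (SD, n = 5) at 0 h, IL6R was at or above 1 FPKM in 1 of 18 tumors, and CXCR1 and CXCR2 were below 1 FPKM in all of them.

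Of the NF-kB and STAT3 genes, 37 of 40 were tested. In limma's test 0 passed at 24 h, with 6 at an unadjusted p under 0.05. At 96 h 1 rose, 2.7% against 1.38% of all genes, with a median of 0.10 against 0.02. This was TNFAIP2, a gene induced by TNF, which went from 19.0 FPKM ± 2.30 (SD, n = 5) to 30.7 FPKM ± 6.92 (SD, n = 5), a log2 difference of 0.64 ± 0.12 (SE, adjusted p = 0.0120) that did not pass with the covariate for genes at 0. At 216 h against 0 h 17 rose and 1 fell, 48.6% against 23.3% of all genes, with a median of 0.39 against 0.17. With quantile normalization 8 rose and 1 fell, and with median scaling likewise, while 9 rose and 1 fell after rescaling without the mitochondrially encoded genes. Over all 11379 genes 2246 rose and 410 fell without rescaling. There 1060 rose and 982 fell with quantile normalization, and 1143 rose and 1082 fell with median scaling. Without the mitochondrially encoded genes 1530 of 11386 rose and 722 fell.

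The largest differences were in regulators and an adhesion molecule. BCL3, a nuclear cofactor of NF-kB, rose from 6.24 FPKM ± 1.08 (SD, n = 5) to 19.2 FPKM ± 3.30 (SD, n = 4), a log2 difference of 1.48 ± 0.16 (SE, adjusted p = 1.34e-05). VCAM1, to which leukocytes adhere, went from 0.612 FPKM ± 0.226 (SD, n = 5) to 3.01 FPKM ± 0.200 (SD, n = 4), a log2 difference of 1.32 ± 0.13 (SE). Outside 216 h just 2 tumors reached 1 FPKM of VCAM1, so that it entered the test through the group where it is high and its calls are no support. It is 1 of 2 such genes among the 17. The other is PTGS2, which reached 1 FPKM in 5 tumors, 1 of them outside 216 h. NFKBIZ, an inducible IkB protein needed for transcription of IL6 in many cells, rose from 7.89 FPKM ± 1.72 (SD, n = 5) to 18.8 FPKM ± 7.08 (SD, n = 4), a log2 difference of 1.10 ± 0.30 (SE, adjusted p = 0.0119). IL6 was lower at that time. ICAM1, another adhesion molecule and NF-kB target, was the one that fell, from 6.15 FPKM ± 0.782 (SD, n = 5) to 3.90 FPKM ± 1.42 (SD, n = 4), a log2 difference of -0.59 ± 0.20 (SE, adjusted p = 0.0416). ICAM1 passed in 3 of the 9 fits that each left out 1 tumor, and not without 0 h replicate 1, 2, 3 or 5 or 216 h replicate 2 or 4. From 96 h to 216 h 10 rose and 0 fell, 27% against 11.1% of all genes, with a median of 0.30 against 0.16. VCAM1 and PTGS2 are among these 10, and their calls are no support here either. NFKBIZ (1.35 ± 0.30, adjusted p = 0.00816), VCAM1 (1.17 ± 0.13) and BCL3 (1.00 ± 0.16, adjusted p = 0.00132) had the largest differences, and with the covariate for genes at 0 none but VCAM1 passed.

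**Figure D4:**
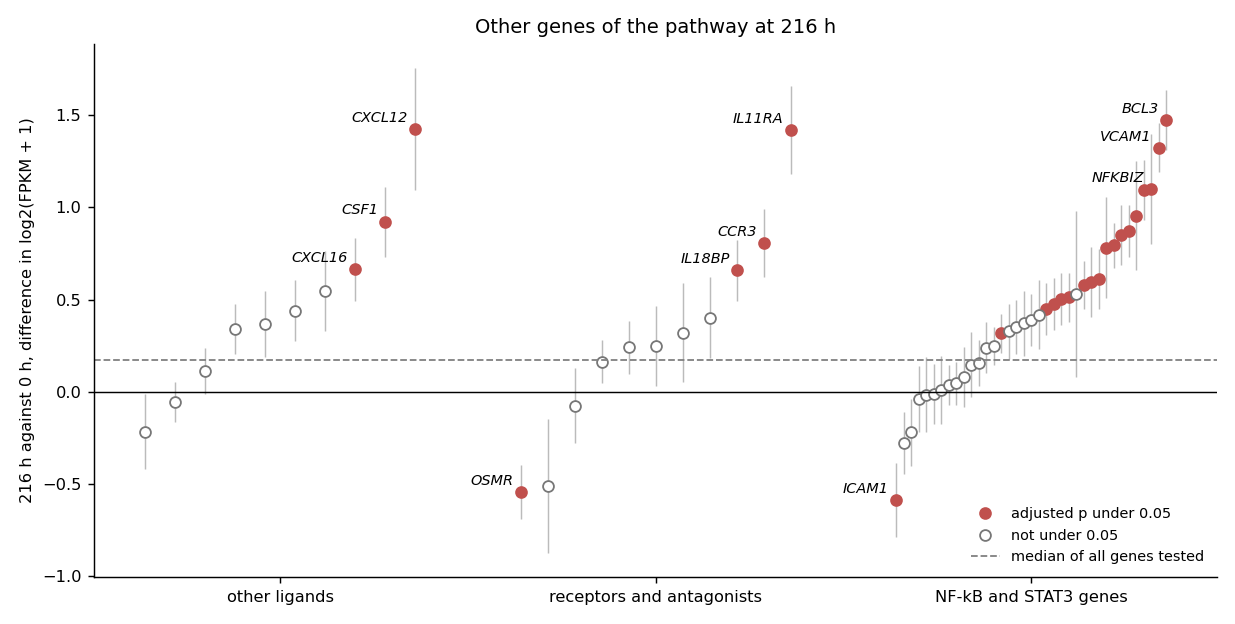
Each point is 1 reported gene of the 3 pathway lists, placed by its difference between 216 h and 0 h in log2(FPKM + 1) with a bar of 1 SE and ordered within its list. Filled points passed an adjusted p of 0.05 in limma's test, the dashed line is the median of all genes tested (0.17), and 17 NF-kB and STAT3 genes are filled above 0 against 1 (ICAM1) below.

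The cells in the tumors were checked by markers, which were also listed with earlier results of these tumors known. The mesothelioma label was met in part: VIM was at 1359 FPKM ± 101 (SD, n = 5) and KRT8 at 184 FPKM ± 21.9 (SD, n = 5) at 0 h, MSLN was at 4.06 FPKM ± 1.00 (SD, n = 5), WT1 stayed below 1 FPKM and PDPN was listed at 0 in all tumors. Of the 9 mesothelial markers listed, KRT19 and UPK3B were also too low to test. MSLN and CALB2 were tested and passed in no contrast. Of the 5 mesothelial markers tested, 3 passed at 96 h in limma's test, when IL6 and CCL5 were lower too. KRT18 (-1.22, adjusted p = 5.76e-05) and KRT8 (-0.56, adjusted p = 0.00996) fell and VIM rose (0.35, adjusted p = 0.0337). With the covariate for genes at 0, KRT18 alone still passed, and VIM did not pass without 0 h replicate 1, 3 or 5 or without 96 h replicate 1, 3, 4 or 5. At 216 h against 0 h KRT18 (-1.34, adjusted p = 1.12e-05) and KRT8 (-0.79, adjusted p = 0.000114) fell. The part of these differences in those of IL6 and CCL5 was not tested.

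Markers listed for myeloid cells and fibroblasts moved at 216 h together with IL1B, CCL2 and the NF-kB genes. Of 18 myeloid markers, 14 were tested, and at 216 h against 0 h 9 rose and 1 (CD68) fell, against 19.7% and 3.6% of all genes. CD68 did not pass without 0 h replicate 1 or 2 or without 216 h replicate 1 or 2, nor with the covariate for genes at 0. It did pass in all 3 rescalings. Of the 9 that rose, PTPRC passed in 0 of the 3 rescalings, and not without 0 h replicate 2 or 216 h replicate 2 or 3. C1QA passed neither with quantile normalization nor with median scaling, and not without 216 h replicate 3 or 4. The others that rose passed in all 3 rescalings and whichever tumor was left out. The summed level of the 18 myeloid markers was between 74.9 and 117 FPKM at 0 h and between 169 and 270 FPKM at 216 h, without overlap. LST1 was listed at 0 in all tumors, and TYROBP and CD163 were below 1 FPKM. CSF1R, the receptor of CSF1 on macrophages, rose from 7.53 FPKM ± 1.35 (SD, n = 5) to 26.2 FPKM ± 5.36 (SD, n = 4), a log2 difference of 1.66 ± 0.24 (SE, adjusted p = 0.000127). Of 9 fibroblast markers, 7 rose and 0 fell, and their sum was between 1329 and 1925 FPKM at 0 h and between 3617 and 4313 FPKM at 216 h. Of 6 endothelial markers 3 were tested and CDH5 rose (0.72, adjusted p = 0.00883, not with quantile normalization), with sums between 3.48 and 6.04 FPKM at 0 h and between 5.69 and 11.5 FPKM at 216 h. The 6 neutrophil markers were all below 1 FPKM in every tumor, with S100A8, FCGR3B and ELANE listed at 0 throughout, and their sum was at most 0.275 FPKM at 0 h and 0.636 FPKM at 216 h. Beside the mesothelial markers at 96 h, 0 myeloid, fibroblast or endothelial markers passed at 24 h and 96 h in limma's test, with 3 at an unadjusted p under 0.05 at 24 h and 0 at 96 h, and at 96 h their summed ranges overlapped those of 0 h. The table lists human genes, and no source used here states what was done with mouse reads. At 0 h the fibroblast markers had means from 0.925 FPKM (DPT) to 960 FPKM (COL1A1). Whether tumor cells or mouse cells gave the marker transcripts was not tested. The part of host cells in the 216 h values of IL1B, CCL2 and the NF-kB genes was not tested either.

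**Figure D5:**
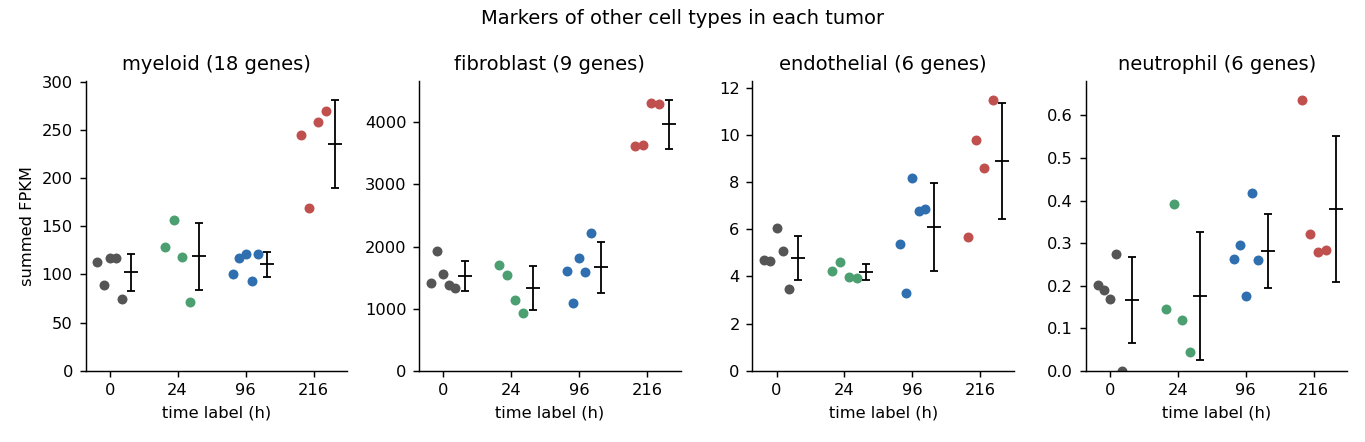
Points give the summed FPKM of each marker list in 1 tumor (linear axes from 0) against the time label in h, with the mean and SD of each group beside them. The myeloid and fibroblast sums at 216 h lie above those of all other tumors, and the neutrophil sum stays below 1 FPKM.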

How the data were processed

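RNA from 18 tumors was sequenced as exome-capture libraries by the authors. The deposited values are FPKM per gene for 20555 genes, in 1 table. Per the submitters' processing notes, reads were aligned with STAR to GRCh38. Neither the tool that made the FPKM values, nor its use of strand, nor the handling of mouse reads is known (not given in the sources used here). Read counts were not analysed here and the depth is unknown, so the standard errors rest on the spread between tumors and no counting error is given. The 4 blank cells were read as 0, and 509 genes held values above 0 but under 1e-05. Of the 153 pairs of tumors 0 were identical, and within groups Pearson's r of log2(FPKM + 1) was between 0.970 and 0.991.

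The 11379 genes that reached 1 FPKM in 4 or more tumors were fitted on log2(FPKM + 1) with limma 3.58.1 in R 4.3.3, all 4 groups in 1 model, with empirical Bayes moderation with a trend and Benjamini-Hochberg adjustment. The fit was tested on simulated data. Tables and figures were made with Python 3.11.15, pandas 2.3.3, numpy 2.4.6 and matplotlib 3.10.9. The members and lists were chosen with earlier results of these data known. Named were the members, the called genes of the pathway lists (where more than 6 were called, the 3 largest rises and falls), the markers, CXCL3, and the 3 genes most like each of the 2 members with the largest range of group means. A called gene is not reported here. Gene ranges in the table match GENCODE release 29, from which strand was taken. Alternatives tried were quantile and median scaling, models restricted to the 2 groups in question, all genes without filtering or those reaching 5 FPKM, rescaling without mitochondrially encoded genes, a pseudocount of 0.1, no trend, a covariate for genes at 0, a log2 fold of at least 1, and leaving out each tumor.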

Additional observations from a re-analysis of the deposited data

Results flagged for a closer look

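CCL2, the monocyte chemokine, differed from 0 h in opposite directions at different times. All 4 tumors at 24 h and all 5 at 96 h were below the 0 h mean, and their group means differed from it by -33.3% and -30.2%. By contrast, all 4 tumors at 216 h were above it, with a group mean 144% higher. Neither the 24 h nor the 96 h difference passed limma's adjusted p of 0.05, and with the covariate for genes at 0 the log2 difference at 96 h was 0.04. Between 96 h and 216 h the log2 difference was 1.39 ± 0.21 (SE), which passed, though not with that covariate, and which is given as a description because these contrasts served to choose the gene. The difference between 24 h and 216 h was not tested. In 40 combinations of member and group examined, 0 had a tumor far from the rest of its group, where chance gives about 2.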

How the results depend on the processing

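No member's log2 difference that had passed the test changed its direction in any alternative run. The same contrasts served to choose the members. Nothing is therefore read from how often their calls held, in the alternatives or with tumors left out. At 216 h against 0 h, where 6 members had passed, 5 did so with quantile and with median scaling, 4 with a filter of 5 FPKM or a log2 fold of at least 1, and 6 in the other alternatives. The filter of 5 FPKM left CCL2 and IL1B untested, so that their calls were not lost in a test. No paired analysis was possible because the labels share no replicate numbers between groups and each mouse belonged to 1 group. With the covariate for genes at 0, members passing were 0 at 96 h and 1 between 96 h and 216 h, other ligands 1 and 0, receptors 0 between 96 h and 216 h, and NF-kB and STAT3 genes 0 and 1. With a filter of 5 FPKM, 1 member, 1 other ligand and 5 NF-kB and STAT3 genes passed between 96 h and 216 h, and 2 receptors at 216 h against 0 h. Here too CCL2, IL1B and lower genes of the lists, such as CXCL16, were not tested. For the other ligands 1 passed between 96 h and 216 h in each of the 3 rescalings, and for the NF-kB and STAT3 genes 6, 5 and 6 with quantile, median and mitochondria-free scaling, against 9, 9 and 10 at 216 h against 0 h. Requiring a log2 fold of at least 1 left 0 NF-kB and STAT3 genes at 96 h, 1 ligand, 2 receptors and 4 NF-kB and STAT3 genes at 216 h against 0 h, and 0, 0 and 2 against 96 h. Without a filter 6 ligands passed at 216 h against 0 h, 4 higher and 2 lower, and 0 receptors against 96 h, and with only the 2 groups compared 2 receptors passed against 96 h.

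Leaving out each tumor gave 0, 2, 6 and 3 members in the 4 contrasts every time, 3 to 4 and 2 to 3 ligands at 216 h against 0 h and 96 h, 4 to 6 and 0 to 1 receptors, and 12 to 16 and 7 to 11 NF-kB and STAT3 genes. Over all genes, those passing at 24 h were 18, against 0 with only 2 groups, 32 with a filter of 5 FPKM, 6 with the covariate and 4 with a log2 fold of at least 1. At 96 h they were 157, against 27 with the covariate and 25 with the fold. At 216 h they were 2656 against 0 h, with 2042, 2225 and 2252 in the rescalings and 425 with the fold. Against 96 h they were 1260, with 681, 622 and 625 in the rescalings, 45 with the covariate and 187 with the fold. The cause was not tested. Depth is unknown, so low members (IL1A, IL11) cannot be read as absent, and groups of 4 or 5 tumors from 1 cage each limit what the tests cover.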
